A study of Homo sapiens with 6 samples.

Results

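The NF-kB subunit genes NFKB1, NFKB2, REL, RELA and RELB and the IkB family genes NFKBIA, NFKBIB, NFKBIE, NFKBIZ and BCL3 were followed in L428, an established Hodgkin lymphoma cell line, after inhibition of the microRNA miR-9. A probe set, the group of short probes that together read 1 transcript, was a member when the platform annotation paired it with exactly 1 of these 10 symbols. This gave 20 of the 54675 probe sets on the array, 12 for the 5 subunits and 8 for 4 of the 5 inhibitors. Both probe sets of BCL3 are paired with a microRNA gene as well, so BCL3 has no member and no value here. The cells of 3 samples received a locked nucleic acid (LNA) inhibitor of miR-9 and those of 3 received a scrambled LNA, both by nucleofection, and total RNA was taken after 9 h. All 6 samples are of the single line L428, and no untransfected sample was used here.

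NF-kB factors are dimers of the 5 subunits, which share the Rel domain that binds DNA and pairs the chains. In resting cells the IkB proteins hold most dimers in the cytoplasm. In the canonical arm, the IKK kinases mark NFKBIA, NFKBIB and NFKBIE for destruction, which frees dimers that hold RELA or REL with the p50 product of NFKB1. In the non-canonical arm, the kinase NIK brings about processing of NFKB2 to p52, which pairs with RELB. NFKBIZ and BCL3 are nuclear IkB proteins that bind DNA-bound dimers and tune transcription. Hodgkin lymphoma cells are known for NF-kB that is always active, and L428 has been described as carrying damaging mutations of NFKBIA and NFKBIE. NFKB1 mRNA has been reported as a target of miR-9, but its level alone does not show whether the inhibitor worked. The arrays read mRNA, and neither protein nor nuclear NF-kB was measured here.

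The mature strands of miR-9 are shown first, since they are what the inhibitor is directed against. The labels do not say which strand the LNA pairs with, and the sources used here do not give its own sequence. Capitals mark the seed, bases 2 to 8, which pairs with target mRNAs. Both sequences come from RefSeq (GRCh38.p14), where each strand is the same at 3 loci.
hsa-miR-9-5p: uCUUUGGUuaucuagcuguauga
hsa-miR-9-3p: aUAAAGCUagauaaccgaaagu

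Several of these genes are known targets of NF-kB themselves, so their promoters are shown with matches to a kB motif in capitals. The motif searched was GGGANNTTCC on either strand (GGAANNTCCC when read from the other strand). Its letters were chosen after other spellings had been tried on these promoters. RefSeq promoters (GRCh38.p14), of 250 bases before and 50 after a transcript start, were found for 8 of the 10 genes. The motif was present in a promoter of 6 of these 8, namely NFKB1, NFKB2, REL, NFKBIA, NFKBIB and NFKBIZ. It was present in 1.61% of all 35116 promoters of that length and in 1.97% of 27305 genes. RELA had 2 promoters and BCL3 had 1, in which these letters did not occur. A match is a description of the letters and not a measured binding site. The 250 bases before the start are printed for NFKB1 (chr4:102501109-102501358, + strand), REL (chr2:60881324-60881573, + strand) and NFKBIA (chr14:35404750-35404999, - strand), 5′ to 3′.
NFKB1: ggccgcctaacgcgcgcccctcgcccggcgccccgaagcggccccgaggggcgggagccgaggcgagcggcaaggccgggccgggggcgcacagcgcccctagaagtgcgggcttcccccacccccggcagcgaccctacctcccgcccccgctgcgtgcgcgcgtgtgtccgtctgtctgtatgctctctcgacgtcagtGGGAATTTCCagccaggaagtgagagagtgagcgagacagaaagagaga
REL: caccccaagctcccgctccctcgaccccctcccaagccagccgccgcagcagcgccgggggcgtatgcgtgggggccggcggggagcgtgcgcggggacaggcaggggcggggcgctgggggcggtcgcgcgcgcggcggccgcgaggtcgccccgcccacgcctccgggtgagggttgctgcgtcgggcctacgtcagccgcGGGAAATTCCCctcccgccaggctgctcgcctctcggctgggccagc
NFKBIA: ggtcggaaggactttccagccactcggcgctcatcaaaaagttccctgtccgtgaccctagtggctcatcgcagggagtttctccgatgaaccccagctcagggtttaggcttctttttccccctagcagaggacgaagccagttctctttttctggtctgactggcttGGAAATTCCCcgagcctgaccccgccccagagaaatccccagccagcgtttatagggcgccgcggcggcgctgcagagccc
The first bases of the matches lie 49 bases before the start in NFKB1, 47 in REL and 81 in NFKBIA. In REL and NFKBIB, matches on both strands overlap by all but 1 base at each end, and the NFKBIA match is read from the other strand. For NFKB2, NFKBIZ and NFKBIB the match is printed with 20 bases on each side. NFKB2 lies at chr10:102395664-102395713, NFKBIZ at chr3:101827747-101827796 and NFKBIB at chr19:38899921-38899971, all on the + strand.
NFKB2: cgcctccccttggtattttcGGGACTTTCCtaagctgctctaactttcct
NFKBIZ: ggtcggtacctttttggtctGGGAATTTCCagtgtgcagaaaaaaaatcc
NFKBIB: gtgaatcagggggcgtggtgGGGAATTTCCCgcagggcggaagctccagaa
The NFKB2 match begins 21 bases before the start in 1 of its 3 promoters. The NFKBIZ match begins at 223 bases in 1 of 2 promoters, and the NFKBIB match at 28 bases in 1 of 2. The core letters of NFKB1, NFKBIZ and NFKBIB are the same.

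The values are log2 expression as deposited, and a difference is the mean with the miR-9 LNA less that with the scrambled LNA. A level filter kept the 27307 probe sets whose mean over the 6 arrays reached 7.11, the median of all. The 19 member probe sets above it were tested with limma in a fit across all kept probe sets, with the threshold at 0.05 after Benjamini-Hochberg adjustment. Precision is limited by the 3 arrays per group, and the labels do not say whether replicates are separate cultures, so a p-value here covers only the spread among these samples. All 11 marker genes of Hodgkin lymphoma cells lay above the filter, at levels from 9.26 to 12.70. Of the markers with probe sets of their own, 4 of 8 for B cells, 3 of 11 for T and NK cells, 3 of 5 for monocytes and 5 of 9 for fibroblasts and endothelium reached it. Scrambled replicate 1 stood apart from the other arrays. Its 90th percentile was 9.28 against 9.45 to 9.57 elsewhere, and the bacterial spike-in dap read 10.34 there against 8.15 to 8.80. The gap between 3′ and 5′ control probe sets is a check on RNA integrity. For ACTB it was widest on miR-9 LNA replicate 1, at 0.87 against 0.22 to 0.58 elsewhere. For GAPDH it was widest on scrambled replicate 1, at 0.19 against -0.05 to 0.06. Probe sets of high level were higher with the miR-9 LNA across the whole array. The median difference was 0.19 in the brightest quintile of tested probe sets, 0.14 in the next, 0.06 in the middle and -0.005 and -0.03 in the dimmest.

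NFKB1, the 1 probe set of p105, and 3 of 5 REL probe sets, which read c-Rel, were higher with the miR-9 LNA by 1.18-fold to 1.23-fold. REL 206035_at was also higher, by 1.13-fold, but at -0.13 on the log2 scale without scrambled replicate 1. RELB, both tested NFKB2 probe sets, RELA 209878_s_at and REL 239486_at were lower, at -0.10 to -0.19 on the log2 scale. RELA 201783_s_at, the NFKBIB probe sets and NFKBIE differed by 0.01 to 0.08. Of NFKBIA, 201502_s_at was higher at 0.23 and 231699_at stood at -0.03, and the NFKBIZ probe sets had opposite signs. None of the 19 tested probe sets passed the threshold, nor did any probe set of the array (0%), and the lowest adjusted p was 0.296 (limma). Without adjustment, 4 of the 19 were at a limma p under 0.05 in the higher direction, 3 of REL and 1 of NFKB1, where 13.8% of all tested probe sets were. In the lower direction 0 of 19 were, against 0.626% of all. All 4 lie in the brightest quintile, where 31.2% of probe sets were at such a p in the higher direction. The median difference over the 19 was 0.04, with 12 higher and 7 lower, beside 0.06 and 66.9% higher for all tested probe sets (51.5% higher after quantile normalization, 75.3% with each array centred on its median).

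The groups did not overlap for 3 of the 19 in the higher direction, against 18.1% of all tested probe sets. These were NFKB1 209239_at and REL 228812_at and 235242_at. They did not overlap for 1 of 19 in the lower direction, RELB 205205_at, against 3.97% of all. With each array centred on its median the counts were 3 higher and 0 lower, beside 6165 and 564 of all 27307 tested probe sets. After quantile normalization they were 1 higher and 2 lower, beside 1631 and 1565 of all. Without miR-9 LNA replicate 3 the counts were 5 higher and 3 lower, and without scrambled replicate 1 they were 3 higher and 5 lower. For all tested probe sets these fits gave 7079 and 2237, and 6073 and 2674. With 3 against 3 arrays a two-sided exact permutation test cannot give a p below 0.1, the value for each of the 4 probe sets named.

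**Figure D1:**
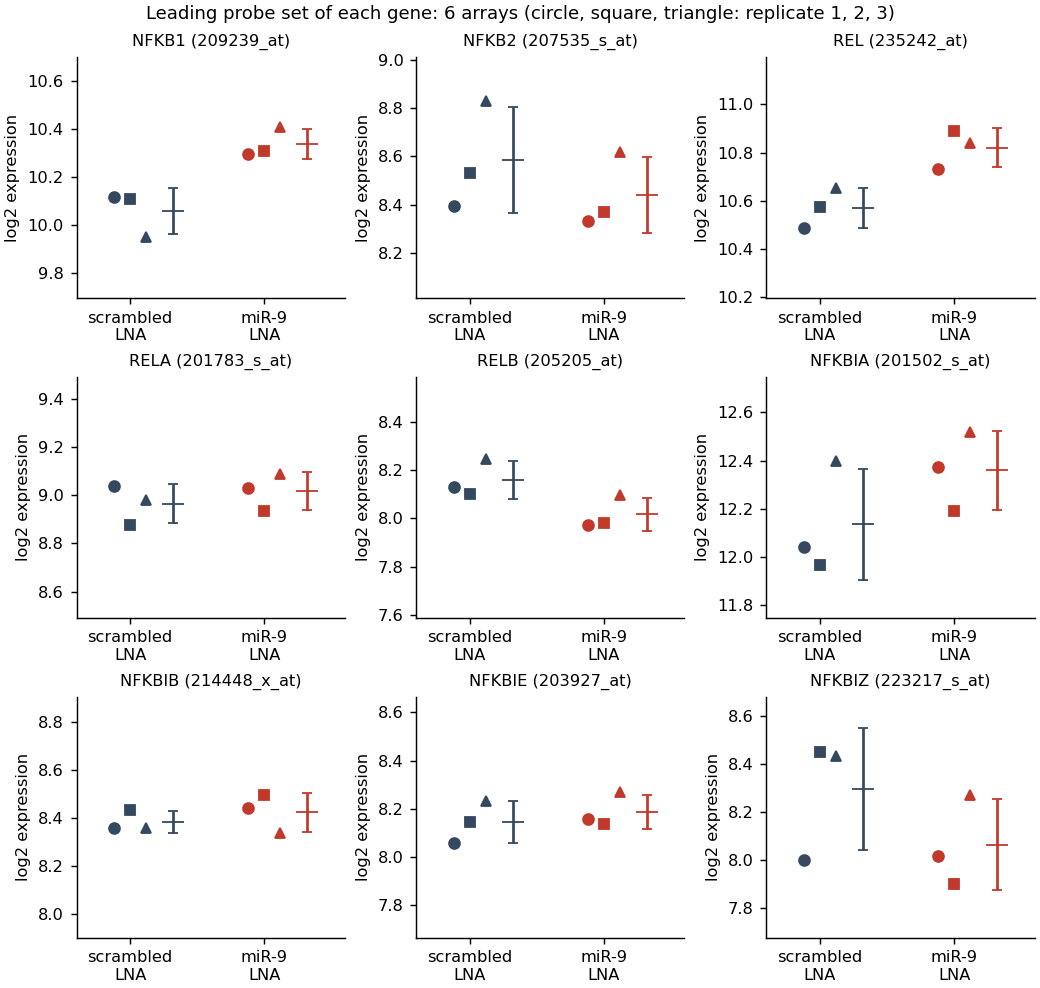
Log2 expression (vertical axes, each spanning 1 log2 unit) of the leading, brightest probe set of each of the 9 genes on the 6 arrays, by group, with bars for the mean and SD of 3 arrays. NFKB1 and REL lie higher on all 3 miR-9 LNA arrays and RELB lies lower, while the groups of the other 6 genes overlap.

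NFKB1 encodes p105, which is cut to the p50 subunit and also acts as an IkB while whole. Its 1 probe set, 209239_at, read 10.29, 10.31 and 10.41 on miR-9 LNA replicates 1, 2 and 3. It read 10.12, 10.11 and 9.95 on the scrambled arrays. Every miR-9 LNA array lay above every scrambled array. The group means were 10.34 ± 0.06 and 10.06 ± 0.09 (SD, n = 3). NFKB1 differed by 0.28 ± 0.07 (SE), a 1.21-fold difference with a 95% interval of 1.08 to 1.36 (limma adjusted p = 0.296). Within same-numbered pairs it was higher by 0.18, 0.20 and 0.46. Probe sets of its quintile of level had a median difference of 0.19, with quartiles of 0.12 and 0.24. Without scrambled replicate 1 the NFKB1 difference was 0.31. After quantile normalization, which gives all arrays the same distribution of values, the difference was 0.10 ± 0.10 (limma adjusted p = 0.910). On that scale scrambled replicate 1, at 10.34, was the highest of the 6 arrays and the groups overlapped.

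REL encodes c-Rel, the subunit most tied to lymphoid cells, and 5 probe sets read it. The 3 brighter ones were higher with the miR-9 LNA. REL 228812_at read 10.60, 10.60 and 10.61 on the miR-9 LNA arrays and 10.17, 10.37 and 10.39 on the scrambled arrays. The miR-9 LNA arrays were nearly level with each other, and scrambled replicate 1 was lowest. The difference was 0.29 ± 0.07, or 1.23-fold with a 95% interval of 1.09 to 1.38 (limma adjusted p = 0.296). REL 235242_at read 10.73, 10.89 and 10.84 against 10.49, 10.58 and 10.65, with no overlap. Its difference was 0.25 ± 0.07 (limma adjusted p = 0.296). REL 206036_s_at read 9.61, 9.83 and 9.85 against 9.42, 9.52 and 9.63, so that miR-9 LNA replicate 1 lay just below scrambled replicate 3. Its difference was 0.24 ± 0.09 (limma adjusted p = 0.316). All 3 probe sets were higher in 3 of 3 same-numbered pairs. Without scrambled replicate 1 their differences were 0.23, 0.21 and 0.19. After quantile normalization they were 0.11, 0.06 and 0.08, and only 228812_at still separated the groups, at 10.47 to 10.55 against 10.40 to 10.41.

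The other 2 REL probe sets lay lower on the scale. REL 239486_at read 8.09, 8.12 and 8.19 with the miR-9 LNA and 7.90, 8.75 and 8.34 with the scrambled LNA. REL 206035_at read 7.76, 7.71 and 7.69 against 6.91, 7.92 and 7.78. In both, the miR-9 LNA arrays were close together and the scrambled arrays were spread on either side of them, with replicate 1 lowest. The differences were -0.19 ± 0.19 and 0.18 ± 0.24 (limma adjusted p = 0.629 and 0.728). The direction at 239486_at rested on scrambled replicate 2, without which the difference was 0.01. The direction at 206035_at rested on scrambled replicate 1, without which it was -0.13. The gap between 228812_at and 239486_at was 2.42 to 2.51 on the miR-9 LNA arrays and 1.63 to 2.27 on the scrambled arrays. On this deposited scale the groups did not overlap. After quantile normalization they overlapped. The gap was then wider on scrambled replicate 1 (10.395 and 7.991) than on miR-9 LNA replicate 1 (10.469 and 8.074). The quintiles that hold 228812_at and 239486_at have median differences of 0.19 and 0.06 as deposited. This pair has the widest deposited difference of the 10 REL pairs, 7 of which overlapped, and was chosen after the values were seen. Which REL transcripts each probe set reads was not tested.

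**Figure D2:**
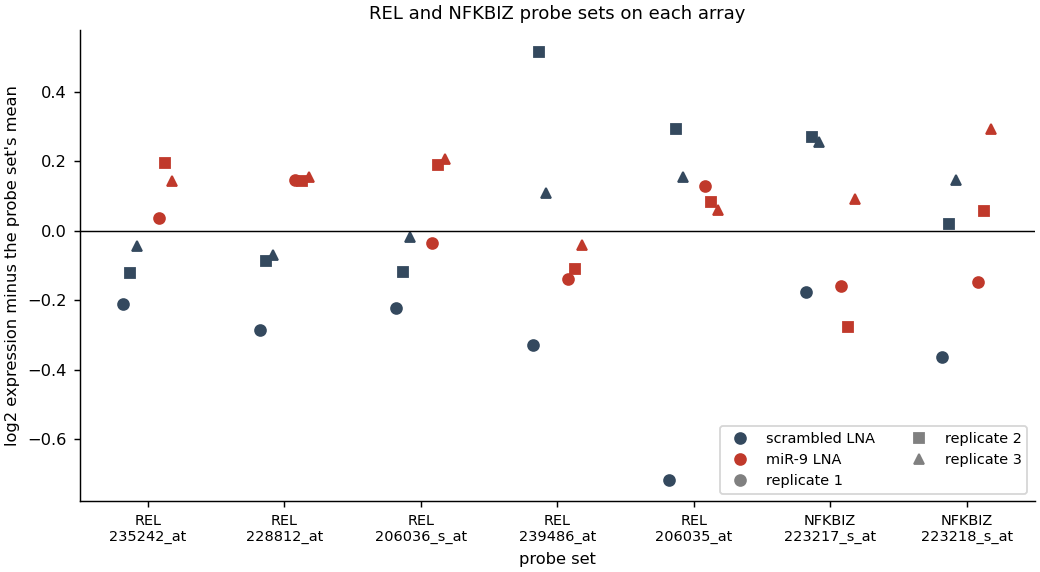
Log2 expression of each REL and NFKBIZ probe set on each array, minus that probe set's mean over the 6 arrays (vertical axis), with colour for group and shape for replicate number. The 3 brighter REL probe sets lie mostly above 0 with the miR-9 LNA, while REL 239486_at, REL 206035_at and both NFKBIZ probe sets overlap and scrambled replicate 1 is lowest for REL 206035_at by far.

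RELA encodes p65, the main activating partner of p50. RELA 201783_s_at read 9.03, 8.93 and 9.09 with the miR-9 LNA and 9.04, 8.88 and 8.98 with the scrambled LNA, and the groups overlapped fully. The difference was 0.05 ± 0.07, with a 95% interval of -0.11 to 0.22 (limma adjusted p = 0.731). RELA 209878_s_at read 7.76, 7.96 and 7.96 against 7.93, 7.997 and 8.08. It was lower in 3 of 3 same-numbered pairs, with a difference of -0.11 ± 0.08 (limma adjusted p = 0.528). As a ratio, the interval at 201783_s_at ran from 0.925-fold to 1.17-fold. Single arrays moved both values, with 0.01 at 201783_s_at without scrambled replicate 2, 0.02 without miR-9 LNA replicate 3, 0.09 without scrambled replicate 1 and 0.10 without miR-9 LNA replicate 2. RELA 209878_s_at was at -0.04 without miR-9 LNA replicate 1 and at -0.07 without scrambled replicate 3. After quantile normalization the RELA differences were -0.08 and -0.15, and the groups of 209878_s_at no longer overlapped.

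NFKB2 encodes p100, the precursor of p52 and an IkB-like inhibitor of RELB while whole. NFKB2 207535_s_at read 8.33, 8.37 and 8.62 with the miR-9 LNA and 8.40, 8.53 and 8.83 with the scrambled LNA. Replicate 3 was highest in both groups, and the same-numbered pairs differed by -0.07, -0.16 and -0.21. The difference was -0.15 ± 0.13 (limma adjusted p = 0.590). Without scrambled replicate 3 it was -0.02 and without scrambled replicate 1 it was -0.24. NFKB2 209636_at read 7.996, 8.06 and 8.42 against 8.38, 8.16 and 8.23, a difference of -0.10 ± 0.12 (limma adjusted p = 0.701). Without miR-9 LNA replicate 3 it was -0.23, without miR-9 LNA replicate 1 it was -0.02 and without scrambled replicate 1 it was -0.04. NFKB2 211524_at lay below the level filter on all 6 arrays, at 6.50 to 6.65, and differed by -0.01.

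RELB, the partner of p52, was read by 205205_at alone. RELB was at 7.97, 7.98 and 8.10 with the miR-9 LNA and at 8.13, 8.10 and 8.25 with the scrambled LNA. Scrambled replicate 2 and miR-9 LNA replicate 3 lay almost at one value, but the groups did not overlap. With each array centred on its median the RELB groups overlapped and the difference was -0.11. In same-numbered pairs RELB differed by -0.16, -0.12 and -0.15. The group means were 8.02 ± 0.07 and 8.16 ± 0.08 (SD, n = 3), a difference of -0.14 ± 0.07 or 0.907-fold, with a 95% interval of 0.811 to 1.01 (limma adjusted p = 0.383). Probe sets of the same quintile of level had a median difference of 0.06, with quartiles of -0.02 and 0.13, so RELB lay below most of them. In that quintile, 2.33% of probe sets had no overlap in the lower direction. After quantile normalization RELB differed by -0.20 ± 0.07 (limma unadjusted p = 0.0149, adjusted p = 0.900). Without scrambled replicate 1 the difference was -0.16.

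**Figure D3:**
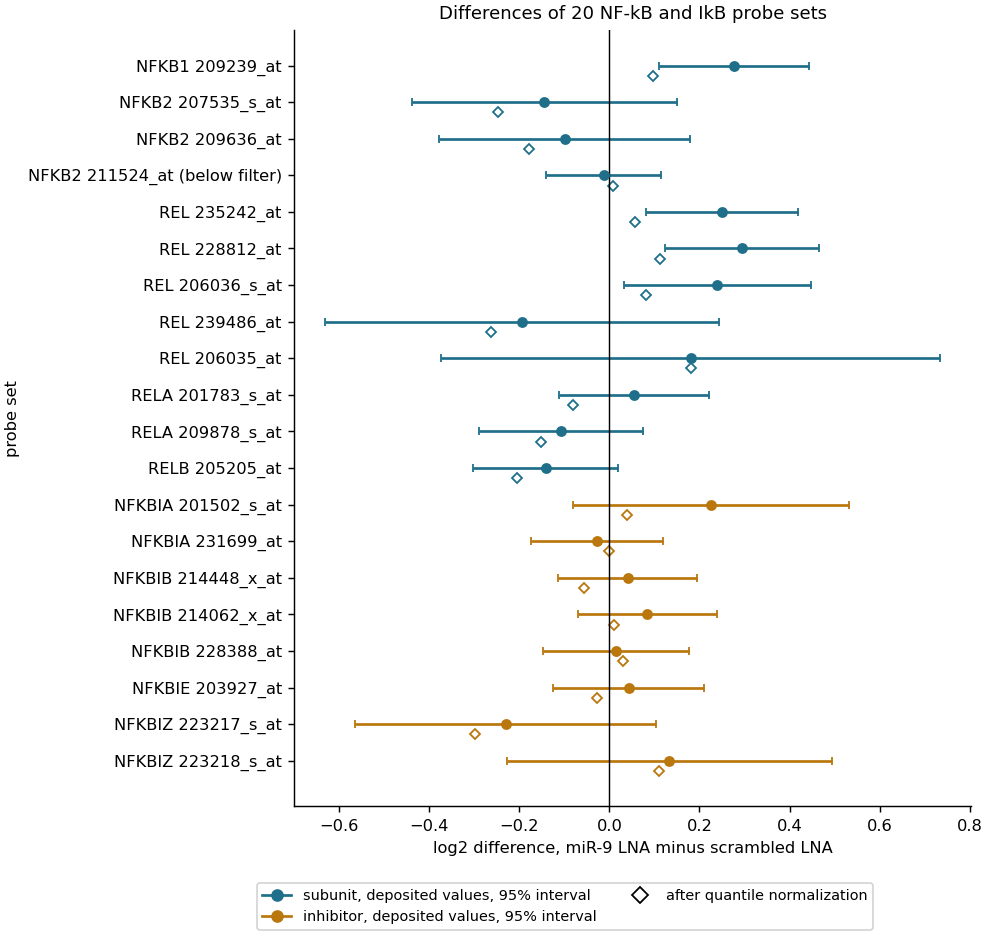
Log2 difference, miR-9 LNA minus scrambled LNA, of each of the 20 probe sets, with filled circles and 95% limma intervals for the deposited values and open diamonds for values after quantile normalization. The intervals of NFKB1 and the 3 brighter REL probe sets lie above 0 before adjustment for multiple testing, and the diamonds lie left of the circles for most probe sets.

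NFKB1 and REL can be set against the other subunits inside each array, which removes any shift that an array shares between them. These contrasts use the leading probe set of each gene and were chosen after the values were seen. The NFKB1 value minus the RELB value was 2.32, 2.33 and 2.31 on the miR-9 LNA arrays and 1.99, 2.01 and 1.70 on the scrambled arrays. The groups did not overlap, and the difference in this contrast was 0.42. On the deposited scale the separation was settled in advance. NFKB1 was higher and RELB lower on every miR-9 LNA array than on any scrambled array. After quantile normalization NFKB1 minus RELB was 2.20, 2.29 and 2.27 against 2.10, 2.05 and 1.71, still without overlap and higher by 0.30. The REL contrast with RELB was higher by 0.39, and by 0.26 after quantile normalization, with no overlap on either scale. As deposited, that separation too was settled in advance, since the leading REL probe set and RELB each separated the groups in opposite directions. The medians of the quintiles that hold NFKB1 or REL and RELB are 0.13 apart in the deposited values. NFKB1 minus NFKB2 was higher by 0.42 with no overlap, and by 0.34 with overlap after quantile normalization. Against RELA, the NFKB1 contrast was higher by 0.22 and the REL contrast by 0.20, both without overlap. For REL minus RELA the groups nearly met, at 1.701 on miR-9 LNA replicate 1 against 1.698 on scrambled replicate 2. After quantile normalization the RELA contrasts were 0.18 and 0.14, with overlap. For the contrasts of NFKB1 or REL with NFKB2 or RELA, the quintile medians are 0.05 apart as deposited. NFKB1 minus REL differed by 0.03, and RELB minus NFKB2 by 0.004. Each is a description of unequal change between probe sets and not a measure of p50 or RELB protein.

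NFKBIA encodes IkB-alpha, the inhibitor that NF-kB itself induces as a brake. NFKBIA 201502_s_at read 12.37, 12.19 and 12.52 with the miR-9 LNA and 12.04, 11.97 and 12.40 with the scrambled LNA. Replicate 3 was highest and replicate 2 lowest in both groups, and the groups overlapped. The difference was 0.23 ± 0.13, or 1.17-fold with a 95% interval of 0.945 to 1.45 (limma adjusted p = 0.444). In same-numbered pairs NFKBIA was higher by 0.33, 0.22 and 0.12. With replicate number as a block the SE was 0.065 and the unadjusted limma p 0.0135, but the adjusted p was 0.159. After quantile normalization the difference was 0.04. Without scrambled replicate 3 it was 0.36, without scrambled replicate 2 it was 0.14 and without miR-9 LNA replicate 3 it was 0.15. NFKBIA 231699_at had a mean just above the level filter, with single arrays on either side of it, at 7.08 to 7.22. It differed by -0.03 ± 0.06, or by 0.01 without scrambled replicate 3.

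NFKBIB encodes IkB-beta, which is degraded and replaced more slowly. Its 3 probe sets differed by 0.08 ± 0.07 (214062_x_at), 0.04 ± 0.07 (214448_x_at) and 0.01 ± 0.07 (228388_at). Their limma adjusted p were 0.556, 0.784 and 0.932, and all of their groups overlapped. NFKBIB 214062_x_at read 8.30, 8.24 and 8.12 with the miR-9 LNA and 8.13, 8.17 and 8.11 with the scrambled LNA. The 2 highest arrays were miR-9 LNA replicates 1 and 2. Without miR-9 LNA replicate 1 its difference was 0.05. Leaving out miR-9 LNA replicate 2 brought 214448_x_at to 0.004 and turned 228388_at to -0.04, whose 95% interval was -0.15 to 0.18. The suffix _x_at marks probe sets whose probes may also bind other transcripts.

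NFKBIE encodes IkB-epsilon, the inhibitor that holds mainly REL and RELA dimers. NFKBIE 203927_at read 8.16, 8.14 and 8.27 with the miR-9 LNA and 8.06, 8.14 and 8.23 with the scrambled LNA. The groups overlapped, and the difference was 0.04 ± 0.07 with a 95% interval of -0.12 to 0.21 (limma adjusted p = 0.791). Without scrambled replicate 1 the NFKBIE difference was -0.002.

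NFKBIZ encodes IkB-zeta, a nuclear cofactor that NF-kB induces. NFKBIZ 223217_s_at read 8.02, 7.90 and 8.27 with the miR-9 LNA and 8.002, 8.45 and 8.43 with the scrambled LNA. The difference was -0.23 ± 0.14 (limma adjusted p = 0.471). NFKBIZ 223218_s_at read 7.70, 7.90 and 8.13 against 7.48, 7.86 and 7.99, a difference of 0.13 ± 0.15 (limma adjusted p = 0.691). Scrambled replicate 1 was the lowest scrambled array at both. Without it the differences were -0.38 and -0.01. The value of 223217_s_at minus that of 223218_s_at was 0.32, 0.003 and 0.14 on the miR-9 LNA arrays and 0.52, 0.59 and 0.44 on the scrambled arrays. The groups did not overlap in this within-gene contrast, which was chosen after the values were seen. Which NFKBIZ transcripts each probe set reads was not tested.

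Set against all probe sets of their level, the members fell on both sides. REL 206035_at lay farthest above the median of its quintile, by 0.19, but its direction rested on scrambled replicate 1. NFKB1 and REL 228812_at lay 0.09 and 0.11 above the median of the brightest quintile, and NFKBIA 201502_s_at lay 0.04 above it. NFKBIZ 223218_s_at lay 0.07 above the median of its quintile. NFKB2 207535_s_at and NFKBIZ 223217_s_at each stood at -0.29 from the median of their quintile, and RELB at -0.20. REL 239486_at stood at -0.26 from its quintile's median, RELA 209878_s_at at -0.17 and NFKB2 209636_at at -0.16. After quantile normalization 9 of the 19 members were higher and 10 lower. On that scale 0 of 19 were at a limma unadjusted p under 0.05 in the higher direction, against 2.38% of all. In the lower direction 3 of 19 were, against 2.17% of all, namely NFKB2 207535_s_at, RELB and NFKBIZ 223217_s_at. None passed adjustment, with adjusted p of 0.900 for each (limma). Without scrambled replicate 1, 3 of 19 were at an unadjusted limma p under 0.05 in the higher direction (10% of all) and 2 of 19 in the lower (3.17%). The higher ones were NFKB1, REL 228812_at and REL 235242_at, and the lower ones were REL 239486_at and NFKBIZ 223217_s_at. With replicate number as a block, 5 of 19 were higher (21.8% of all) and 1 of 19 lower (1%) at that p, which added NFKBIA 201502_s_at and RELB.

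**Figure D4:**
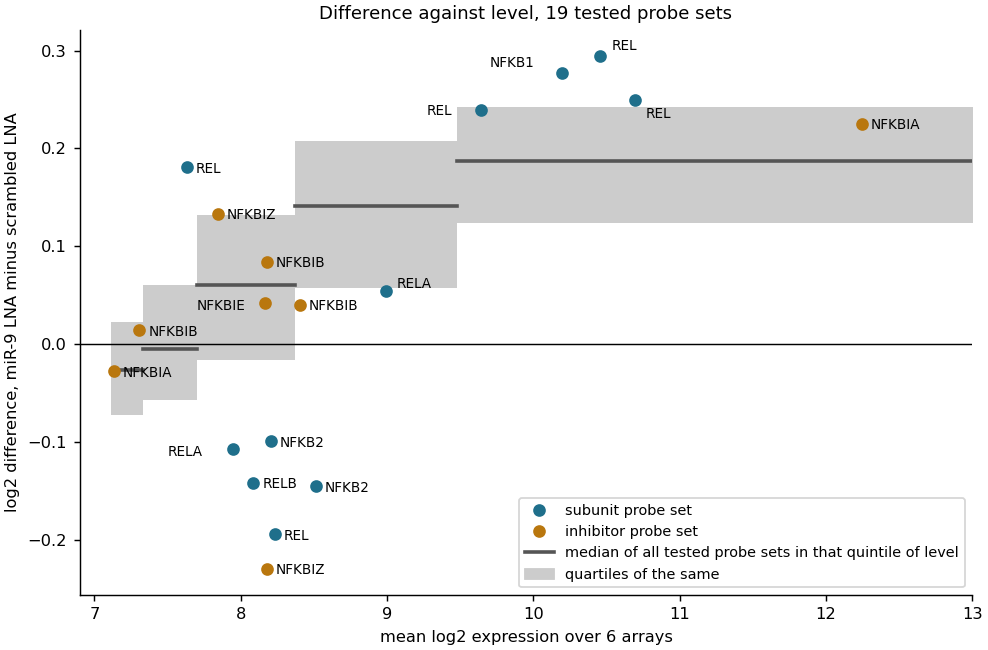
Log2 difference (vertical axis) against mean log2 level over the 6 arrays (horizontal axis) for the 19 tested probe sets, with the median and quartiles of all tested probe sets in each quintile of level in grey. NFKB1 and 3 REL probe sets lie near or above the upper quartile of the brightest quintile. REL 206035_at lies above the upper quartile of its quintile and NFKBIZ 223218_s_at lies near that of its own. The probe sets of NFKB2, RELA and RELB, with 1 each of REL, NFKBIB and NFKBIZ, lie below the lower quartile of theirs.

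Other genes of the pathway were read from the brightest tested probe set of each gene. Of the 70 tested, 57 were higher and 0 passed the threshold (limma), where 70.0% of all 12367 tested genes were higher. At an unadjusted limma p under 0.05, 13 were higher and 0 lower, beside 17.4% and 0.598% of all genes. The median of the 70 was 0.13 as deposited and -0.008 after quantile normalization, beside 0.08 and -0.0009 for all genes. These comparisons are not matched for level. The median level was 7.32 for the receptors and 9.07 to 10.67 for the other lists below. Of all tested probe sets, 86.4% were higher in the next-to-brightest quintile and 95.3% in the brightest. There, 24.9% and 31.2% were at an unadjusted limma p under 0.05 in the higher direction, and the median differences were 0.14 and 0.19.

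The IKK complex and NIK phosphorylate the IkB proteins and p100. Of their 6 genes 5 were higher, with a median of 0.10. TBK1, an IKK-related kinase, read 10.73, 10.78 and 10.63 with the miR-9 LNA and 10.41, 10.52 and 10.39 with the scrambled LNA. The difference was 0.27 ± 0.07 (limma adjusted p = 0.296). IKBKB, which encodes IKK-beta, differed by 0.24 ± 0.10 and CHUK, which encodes IKK-alpha, by 0.13 ± 0.07. After quantile normalization these 3 differences were 0.08, 0.11 and -0.008. With scrambled replicate 1 left out they were 0.26, 0.14 and 0.09.

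Adaptors and upstream kinases carry the signal from receptors to IKK. Of 15 tested genes 14 were higher, with a median of 0.18. The genes of smallest p were TAB3, which binds the kinase TAK1, MYD88, the adaptor of Toll-like and interleukin-1 receptors, and MAP3K7, which encodes TAK1. They differed by 0.24 ± 0.08, 0.18 ± 0.06 and 0.18 ± 0.06 (limma adjusted p = 0.296, 0.296 and 0.307). After quantile normalization they differed by 0.06, -0.001 and 0.02.

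Negative regulators other than the IkB genes were higher for 9 of 11 tested, with a median of 0.12. CYLD, a deubiquitinase that shuts off IKK, differed by 0.27 ± 0.08, and TAX1BP1, an adaptor of the A20 enzyme, by 0.32 ± 0.11. NFKBIL1, named for its likeness to IkB proteins, read 7.59, 7.53 and 7.65 with the miR-9 LNA and 7.76, 7.69 and 7.70 with the scrambled LNA. Its groups did not overlap and it differed by -0.12 ± 0.06 (limma adjusted p = 0.388). The ubiquitin ligase that destroys phosphorylated IkB was higher for 5 of 5 genes, with a median of 0.15. Its scaffold CUL1 differed by 0.26 ± 0.11, its substrate receptor FBXW11 by 0.15 ± 0.07 and its linker SKP1 by 0.15 ± 0.12. When scrambled replicate 1 was left out, these were 0.13, 0.13 and 0.03. After quantile normalization the list medians were -0.04 and -0.009.

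Of 11 receptors that signal to NF-kB, 6 were tested, with 2 higher, 4 lower and a median of -0.01. TNFRSF11A, which encodes RANK, differed by 0.23 ± 0.09 (limma adjusted p = 0.337). TNFRSF8, which encodes CD30, the marker of Hodgkin lymphoma cells, differed by 0.11 ± 0.09, and TNFRSF13B, a receptor of B cells, by -0.07 ± 0.07. TNFRSF8 was at 0.06 and TNFRSF13B at -0.006 without scrambled replicate 1.

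Textbook NF-kB targets, with the member genes left out, were higher for 23 of 28 tested as deposited and for 10 of 28 after quantile normalization. Their median was 0.11 on the first scale and -0.04 on the second. SOD2, a mitochondrial antioxidant enzyme, read 9.47, 9.23 and 9.54 with the miR-9 LNA and 8.36, 8.96 and 9.26 with the scrambled LNA. Scrambled replicate 1 was lowest and the groups overlapped. SOD2 differed by 0.55 ± 0.21 (limma adjusted p = 0.319), by 0.42 after quantile normalization and by 0.30 without scrambled replicate 1. CCND2, which encodes cyclin D2, differed by 0.25 ± 0.10, and IRF4, a factor of activated B cells, by 0.20 ± 0.09. These were 0.07 and 0.008 after quantile normalization.

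**Figure D5:**
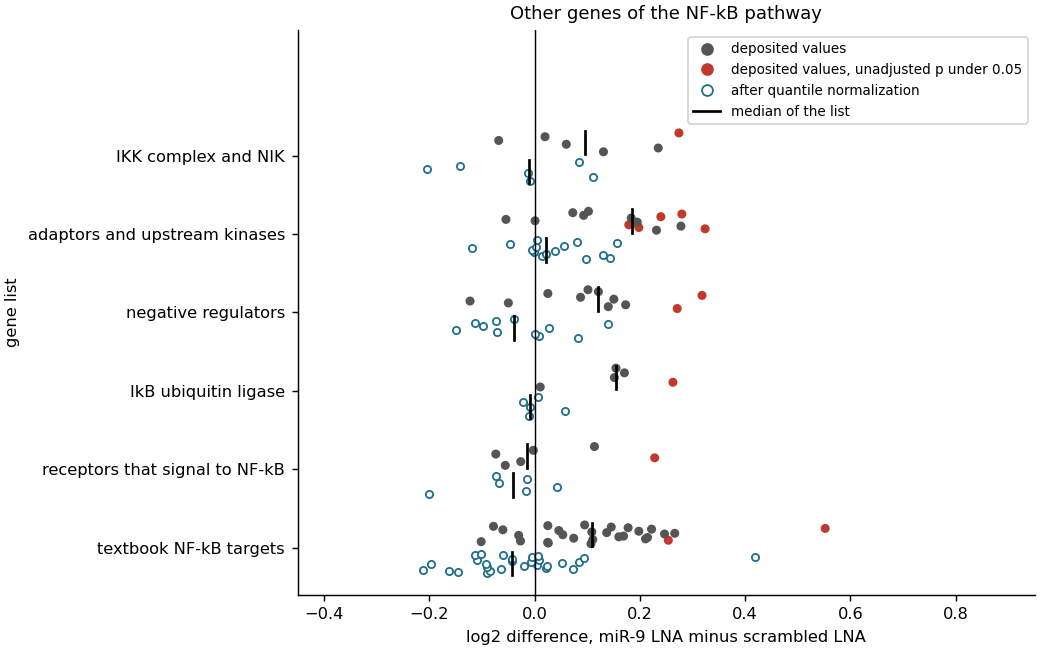
Log2 difference, miR-9 LNA minus scrambled LNA (horizontal axis), of each tested gene in 6 lists of the NF-kB pathway without the member genes, with filled points for deposited values, open points for values after quantile normalization and a bar for each median. Filled points lie mostly right of 0 and open points lie on both sides of it.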

How the data were processed

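The authors deposited log2 expression values for 54675 probe sets of Affymetrix HG-U133 Plus 2.0 arrays, which the submitters' processing notes tie to affy and RMA. Versions and options are not given in the sources used here. From these values, 62 control probe sets were left out and probe sets with a mean at or above the median of the rest (7.11) were tested two-sided in limma 3.58.1 (R 4.3.3, lmFit then eBayes), adjusting over all 27307 by Benjamini-Hochberg. The probe set below the filter was read from a fit without it.

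Gene names came from the platform annotation, and all 9 member genes matched the GRCh38.p14 gene table. The members and lists were chosen with earlier results of these data known. Named are all member probe sets and the 3 genes of smallest p in each pathway list. Others were named after their values were seen. Quintiles are equal bins of the tested probe sets by mean level.

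Across probe sets, the deviations of equal-numbered arrays from their group means correlated at r = 0.231, 0.193 and 0.634. For arrays of unlike number r ran from -0.429 to 0.168, the highest for miR-9 LNA replicate 1 with scrambled replicate 2. The pairing was taken from the replicate numbers in the sample titles, which do not state that equal numbers belong together. In these correlations only replicate 3 stood clearly above the unlike pairs. No arrays were identical. Alternatives were quantile normalization, median centring, other level filters, the replicate block, an intensity trend and leaving out each array. Quantile normalization with the block was added after the data were examined. The fit was tested on simulated data with independent noise for each probe set. The simulation held neither the level-dependent difference nor an array that stood apart.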

Additional observations from a re-analysis of the deposited data

How the results depend on the processing

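No tested probe set of the array, no member and no pathway gene passed the threshold in any of the 13 alternatives (limma). At an unadjusted limma p under 0.05, 4 members were higher and 0 lower, beside 3755 and 171 of all 27307 tested probe sets. After quantile normalization 0 were higher and 3 lower, beside 650 and 593 of all. With the replicate block 5 were higher and 1 lower, beside 5944 and 274. With the block after quantile normalization 0 were higher and 4 lower, beside 1765 and 1144. In both directions together, 3 to 5 members were at that p when each array was left out, beside 2405 to 4385 of all. At the adjusted threshold the block changed no call. The count of members without overlap was 4, with 3 after quantile normalization, 3 with each array centred on its median (RELB then overlapped) and 4 to 8 when each array was left out. For all tested probe sets the leave-out fits gave 6073 to 7701 higher and 1573 to 2674 lower. The median difference of the members was 0.04, -4.6e-05 after quantile normalization and -0.0017 to 0.068 when each array was left out. Of the 20 probe sets, 11 kept their direction in every alternative run for them, among them NFKB1, RELB, both tested NFKB2 probe sets and the 3 brighter REL probe sets. Quantile normalization, with or without the block, turned RELA 201783_s_at to -0.081, NFKBIB 214448_x_at to -0.055 and NFKBIE to -0.029, and without the block NFKB2 211524_at to 0.0069. Leaving out each array in turn, directions turned within -0.054 to 0.020 (NFKB2 211524_at), -0.41 to 0.014 (REL 239486_at), -0.13 to 0.37 (REL 206035_at), -0.056 to 0.012 (NFKBIA 231699_at), -0.043 to 0.060 (NFKBIB 228388_at), -0.0017 to 0.087 (NFKBIE) and -0.015 to 0.24 (NFKBIZ 223218_s_at). The cause was not tested. Dim probe sets lie near the lower end of the deposited scale, where differences may be understated.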

Other observations

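Genes other than the members with a GGGANNTTCC match in a promoter were read the same way, as a description of the whole array. Of 211 such tested genes, 68.7% were higher with the miR-9 LNA, with a median difference of 0.08. Of 9755 tested genes with a promoter and no match, 72.0% were higher, with a median of 0.09. At an unadjusted limma p under 0.05 in the higher direction there were 38 of the 211 (18.0%) and 1810 of the 9755 (18.6%). After quantile normalization the medians were -0.01 and 0.001. The median levels were 8.57 and 8.52.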
